A study of Mus musculus with 13 samples.

Results

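DNA replication and S phase genes were followed in RNA-seq read counts from mouse splenic B cells. The set held 39 genes taken by symbol from the count tables, and all 39 were among the 23336 gene rows that could be used. Deficient cells were Regnase-1 f/f hCD20TamCre, with a floxed Zc3h12a gene and a tamoxifen-inducible Cre driven by human CD20 sequence. Zc3h12a encodes Regnase-1, an endoribonuclease that degrades mRNAs. Control cells were Regnase-1+/+ with that Cre. There were 3 deficient and 3 control libraries after 4 h of B cell receptor (BCR) stimulation with an anti-IgM F(ab')2 fragment, and 3 deficient and 4 control unstimulated libraries. Cells were naive spleen cells left after removal of CD43-bearing cells on beads. The labels give no age, no tamoxifen schedule and no time for the unstimulated libraries, so stimulation and time in culture cannot be told apart. They also do not say that each library came from a separate animal, in which case p-values would measure only the spread between these samples.

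DNA replication is licensed in G1, when the origin recognition complex, CDC6 and CDT1 load the MCM helicase onto DNA. In S phase CDC45 and the GINS complex switch that helicase on, and polymerase alpha with primase starts each strand before polymerases delta and epsilon extend it on the PCNA clamp. Many of these genes are targets of E2F transcription factors, which the RB family holds in check in resting cells. Naive B cells rest outside the cycle, and BCR signalling drives them through G1 over many hours before DNA synthesis begins. In bulk RNA a lower level can come from fewer cells of a type or from less RNA per cell, and these cannot be told apart.

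Library totals lay between 21407724 and 33244755 counts, so 3 counts stood for 0.0902 to 0.14 CPM, counts scaled to a common library total. Levels are CPM after TMM scaling, so they are relative to the other genes of a library and are not amounts per cell. Zc3h12a had 92.6, 103 and 113 CPM in stimulated deficient cells, against 157, 156 and 147 CPM in stimulated control cells, a log2 change of -0.58 ± 0.079 (SE, edgeR adjusted p = 0.000784). In unstimulated cells it had 89.2, 99.6 and 111 CPM in deficient and 124, 131, 121 and 124 CPM in control libraries, a log2 change of -0.32 ± 0.074 (SE, edgeR adjusted p = 0.106). Deficient libraries were lower in both states without overlap, but reads over any undeleted exons are counted too, and the sources used here do not say which exons are floxed. The 8 B cell markers summed to 2792 to 3038 CPM in stimulated deficient and 2646 to 2847 CPM in stimulated control libraries, and to 5519 to 6536 CPM in unstimulated deficient and 5746 to 6427 CPM in unstimulated control libraries.

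The deficient libraries numbered 1, 1 in each state, stood apart from the rest. Their replication genes summed to 2460 CPM after stimulation and 2460 CPM without it. The other 5 stimulated libraries summed to 1816 to 2028 CPM and the other 6 unstimulated ones to 1760 to 2017 CPM. Values without these 2 libraries stand beside the results they changed. That exclusion was chosen with earlier results of these data known, so its p-values are descriptive only. The same libraries had the highest sums of red cell markers and of granulocyte precursor markers in their states, as set out with the genotype comparison.

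Within control unstimulated cells the 39 genes spanned a wide range of levels. Per kilobase of exon, Pcna stood highest at 65.8 ± 4.24 CPM per kb (SD, n = 4), followed by Cdt1 at 47.9 ± 1.82 and Mcm4 at 32.7 ± 1.57 CPM per kb. Mcm3, Mcm6, Pold1 and E2f2 came next, at 28.6 ± 1.19, 28.1 ± 1.80, 25.3 ± 2.46 and 24.5 ± 5.59 CPM per kb. Among these genes the range of mean ± SD of each overlapped that of the next. At the low end lay Chek1 at 0.947 ± 0.138, Tyms at 0.799 ± 0.178 and Gins2 at 0.734 ± 0.0334 CPM per kb.

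**Figure D1:**
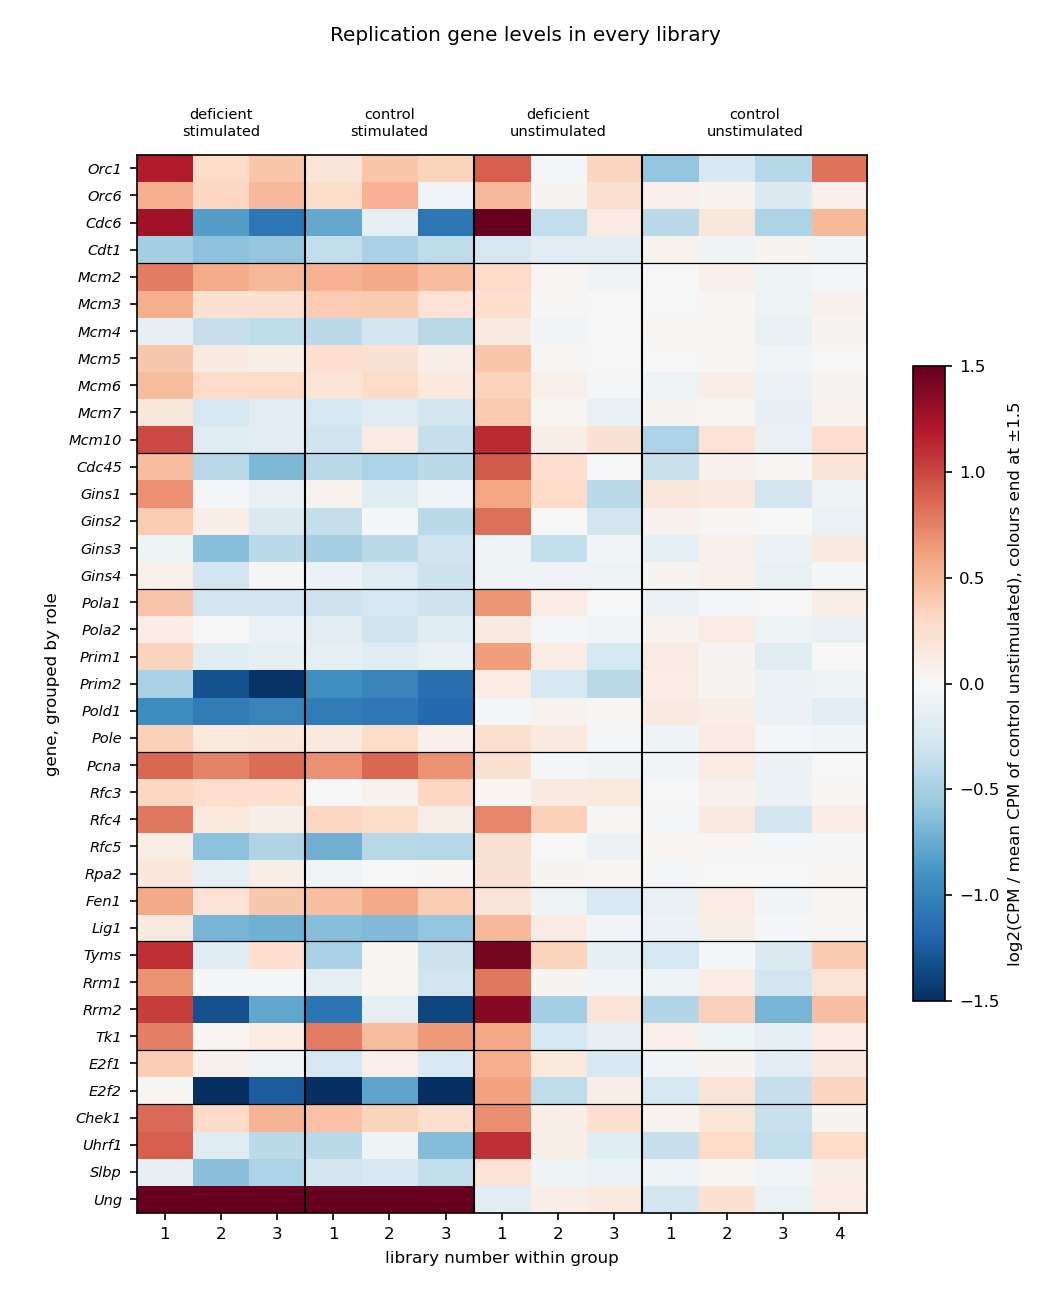
Heat map of the 39 replication genes (rows, grouped by role) in the 13 libraries (columns, numbered within groups), as log2 of CPM over the mean CPM of the 4 control unstimulated libraries. Colours end at ±1.5, which Ung passes in all 6 stimulated libraries. The columns of the deficient libraries numbered 1 are redder than their neighbours in most rows, and Ung, Pcna, Mcm2, Pold1, Cdt1 and Prim2 differ between stimulated and unstimulated libraries.

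After 4 h of BCR stimulation the replication genes moved in both directions. In deficient cells 6 of 39 rose and 6 fell, and 27 did not pass the test, with a median log2 change of -0.066 against -0.11 over all genes tested. By the same test 57.9% of all 13574 genes were called, 28.3% higher and 29.6% lower. In control cells 7 rose and 9 fell, and 23 did not pass, with a median log2 change of -0.16 against -0.13 over all genes. Here 60.3% of all genes were called, 28.5% higher and 31.8% lower. A gene was called at an adjusted p under 0.05 in edgeR's quasi-likelihood test across all genes. The share of replication genes called was 30.8% in deficient and 41.0% in control cells, each below that of all genes, and with numbered pairs as a block the control share was above it, as given with the pairs. Without the 2 deficient libraries numbered 1, 8 rose and 9 fell in deficient cells, where 54.9% of all genes were called, and 10 rose and 13 fell in control cells, where 62.3% were. The genes added in deficient cells were Mcm5 and Tk1, higher, and Rfc5, Cdc45 and E2f2, lower. Among the 16 called in control cells were the 12 called in deficient cells, and the other 4 were Tk1, Rfc5, Pola2 and Gins3. The split between directions in control cells moved with the scaling, to 10 higher and 6 lower with DESeq2's size factors and to 5 higher and 11 lower with upper-quartile factors. In deficient cells it was 6 and 6 with size factors and 4 and 7 with upper-quartile factors.

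Promoter sequence was set beside the members that moved most clearly with stimulation. RefSeq promoters (GRCm38.p6, 250 bases before to 50 after the annotated start) were found for 33 of the 39 genes, 39 promoters in all. The 3 rising and 3 falling genes with the smallest p in control cells that had a promoter were Ung, Pcna, Mcm2, Pold1, Cdt1 and Rfc5. The 5 below show the contrast between those with an E2F sequence, a CCAAT box and no match, with matches in capitals.
Ung (chr5:114130185-114130484, plus strand): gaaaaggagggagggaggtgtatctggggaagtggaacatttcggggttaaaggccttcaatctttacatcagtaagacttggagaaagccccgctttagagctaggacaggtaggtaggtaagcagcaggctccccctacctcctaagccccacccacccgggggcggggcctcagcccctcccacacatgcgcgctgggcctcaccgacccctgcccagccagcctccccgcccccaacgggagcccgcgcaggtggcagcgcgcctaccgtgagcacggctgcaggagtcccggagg
Pcna (chr2:132253131-132253430, minus strand): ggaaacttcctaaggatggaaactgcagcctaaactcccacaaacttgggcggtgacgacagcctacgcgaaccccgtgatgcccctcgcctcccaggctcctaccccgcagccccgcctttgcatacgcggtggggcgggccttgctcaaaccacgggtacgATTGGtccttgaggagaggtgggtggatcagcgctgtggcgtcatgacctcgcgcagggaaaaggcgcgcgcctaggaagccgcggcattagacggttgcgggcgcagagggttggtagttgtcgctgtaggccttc
Mcm2 (chr6:88898731-88899030, minus strand): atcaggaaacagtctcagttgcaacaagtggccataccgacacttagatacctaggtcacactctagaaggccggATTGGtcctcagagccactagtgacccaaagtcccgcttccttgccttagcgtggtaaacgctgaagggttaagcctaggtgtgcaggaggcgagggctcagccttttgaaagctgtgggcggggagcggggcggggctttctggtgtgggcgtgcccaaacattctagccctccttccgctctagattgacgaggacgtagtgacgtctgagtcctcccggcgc
Pold1 (chr7:44548766-44549065, minus strand): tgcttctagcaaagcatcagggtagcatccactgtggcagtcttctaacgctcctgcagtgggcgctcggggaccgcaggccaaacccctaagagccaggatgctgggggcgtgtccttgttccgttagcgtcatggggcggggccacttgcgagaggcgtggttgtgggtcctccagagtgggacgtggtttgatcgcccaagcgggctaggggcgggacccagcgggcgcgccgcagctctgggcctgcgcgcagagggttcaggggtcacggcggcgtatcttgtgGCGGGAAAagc
Cdt1 (chr8:122567765-122568064, plus strand): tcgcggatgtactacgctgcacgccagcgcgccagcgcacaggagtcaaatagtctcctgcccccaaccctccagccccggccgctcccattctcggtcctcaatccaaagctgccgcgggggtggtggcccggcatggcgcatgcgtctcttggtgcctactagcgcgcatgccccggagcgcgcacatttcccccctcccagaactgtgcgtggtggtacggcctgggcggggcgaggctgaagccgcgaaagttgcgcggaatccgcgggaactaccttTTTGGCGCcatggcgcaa
Pold1 and Cdt1, which fell, each hold an E2F sequence just after the start, at 39 and 32 bases. Pcna and Mcm2, which rose, each hold a CCAAT box on the opposite strand, 5 bases read here as ATTGG, at positions -87 and -175. Ung, the largest rise, holds none of the 4 motifs searched, and neither does Rfc5.

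The E2F letters searched were TTTCCCGC, TTTGGCGC, TTTCGCGC and TTTGCCGC, on both strands, and the other motifs were the CCAAT box, the E-box CACGTG and the AP-1 letters TGANTCA, each free to overlap another motif. An E2F sequence was present in 14 of the 39 promoters of replication genes (35.9%) and in 2.26% of all 32851 promoters of that length. CCAAT was in 59% of replication gene promoters against 37.4% of all, CACGTG in 10.3% against 7.15%, and TGANTCA in 0 of 39 against 7.81%. By the control stimulation call, an E2F sequence was present for 2 of 7 genes that rose, 4 of 7 that fell and 8 of 19 that did not pass. A CCAAT box was present for 4 of 7 that rose, 2 of 7 that fell and 14 of 19 that did not pass. Mcm3 and Mcm6, which rose, held both. Each of these motifs thus occurred in genes of every kind of response. A match is a description of these letters only.

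Ung, the uracil-DNA glycosylase that also acts on deaminated immunoglobulin genes in B cells, rose most. It had 90.1, 83.4 and 91.3 CPM in stimulated deficient cells, against 14.6, 17.5 and 18.1 CPM in unstimulated deficient cells. In control cells it had 89.8, 103 and 98.1 CPM after stimulation and 13.3, 19.2, 15.2 and 17.6 CPM without it. Every stimulated library stood above every unstimulated one, and the group means were 88.3 ± 4.29 and 16.7 ± 1.86 CPM in deficient cells and 97.03 ± 6.80 and 16.3 ± 2.58 CPM in control cells (SD, n = 3 except 4 control unstimulated). The log2 change was 2.401 ± 0.12 (SE, edgeR adjusted p = 1.80e-10) in deficient and 2.57 ± 0.11 (SE, edgeR adjusted p = 2.40e-11) in control cells.

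Pcna, the sliding clamp that holds polymerases on DNA, with a CCAAT box in its promoter, was the next largest rise. It had 287, 265 and 282 CPM in stimulated deficient cells and 185, 154 and 151 CPM in unstimulated deficient cells. Control cells had 254, 287 and 251 CPM after stimulation and 153, 172, 148 and 158 CPM without it. The states did not overlap in either genotype, and the log2 change was 0.77 ± 0.081 (SE, edgeR adjusted p = 5.66e-07) in deficient and 0.74 ± 0.075 (SE, edgeR adjusted p = 2.97e-07) in control cells. Of the other clamp and clamp loader genes, Rfc5 fell in control cells, with 11.2, 13.9 and 13.8 CPM after stimulation and 18.9, 18.8, 18.2 and 18.3 CPM without it and a log2 change of -0.52 ± 0.15 (SE, edgeR adjusted p = 0.00659). In deficient cells Rfc5 had 19.96, 12.1 and 13.6 CPM after stimulation and 21.8, 18.49 and 17.5 CPM without it, a log2 change of -0.35 ± 0.16 (SE, edgeR adjusted p = 0.0708), and without the 2 libraries numbered 1 this became -0.43 ± 0.12 (SE, edgeR adjusted p = 0.00828). Rfc3, Rfc4 and Rpa2, a subunit of the single-strand binding complex, did not pass the test in either genotype.

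The subunits of the MCM helicase, which act as a ring of 6 different proteins, did not move together. Mcm2, Mcm3 and Mcm6 rose while Mcm4 fell, in both genotypes, and Mcm5 and Mcm7 did not pass the main test. In control cells the states did not overlap for either, Mcm5 being higher and Mcm7 lower after stimulation. DESeq2 called Mcm5 higher there (DESeq2 adjusted p = 0.0183). Without the 2 deficient libraries numbered 1 both passed in control cells (edgeR adjusted p = 0.000471 for Mcm5 and 0.00617 for Mcm7). With numbered pairs as a block Mcm7 passed in both genotypes, as given with the pairs. Mcm2 had 155, 133 and 128 CPM in stimulated deficient cells, against 111, 92.5 and 87.2 CPM in unstimulated deficient cells. In control cells Mcm2 had 131, 135 and 125 CPM after stimulation and 91.02, 95.3, 86.8 and 89.7 CPM without it. The states did not overlap, with log2 changes of 0.52 ± 0.086 (SE, edgeR adjusted p = 8.44e-05) in deficient and 0.52 ± 0.080 (SE, edgeR adjusted p = 3.35e-05) in control cells. Mcm4 had 107, 92.1 and 89.8 CPM in stimulated and 128, 114 and 117 CPM in unstimulated deficient cells, and 89.4, 97.05 and 88.04 CPM in stimulated and 119.7, 120.1, 109 and 120.3 CPM in unstimulated control cells. It was lower in every stimulated library than in every unstimulated one of its genotype, with a log2 change of -0.31 ± 0.075 (SE, edgeR adjusted p = 0.00179) in deficient and -0.36 ± 0.070 (SE, edgeR adjusted p = 0.000342) in control cells.

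Mcm3 had 157, 125 and 127 CPM in stimulated and 128, 108 and 108 CPM in unstimulated deficient cells, and 139, 141 and 125 CPM in stimulated and 106, 109, 102 and 112 CPM in unstimulated control cells. Its log2 change was 0.25 ± 0.089 (SE, edgeR adjusted p = 0.0257) in deficient and 0.33 ± 0.083 (SE, edgeR adjusted p = 0.00242) in control cells. Stimulated deficient libraries 2 and 3 lay below unstimulated deficient library 1, so the deficient groups overlapped, and the call there was lost without stimulated library 1 or without unstimulated library 2 or 3 (highest edgeR adjusted p = 0.149). For Mcm6 the log2 change was 0.21 ± 0.086 (SE, edgeR adjusted p = 0.0466) in deficient and 0.22 ± 0.080 (SE, edgeR adjusted p = 0.0287) in control cells. That call was weak: in deficient cells it was lost on leaving out any of 9 of the 13 libraries, with an edgeR adjusted p of up to 0.204, and in control cells it was lost for 4 libraries, with one of up to 0.112. Mcm10, a helicase cofactor, did not pass.

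**Figure D2:**
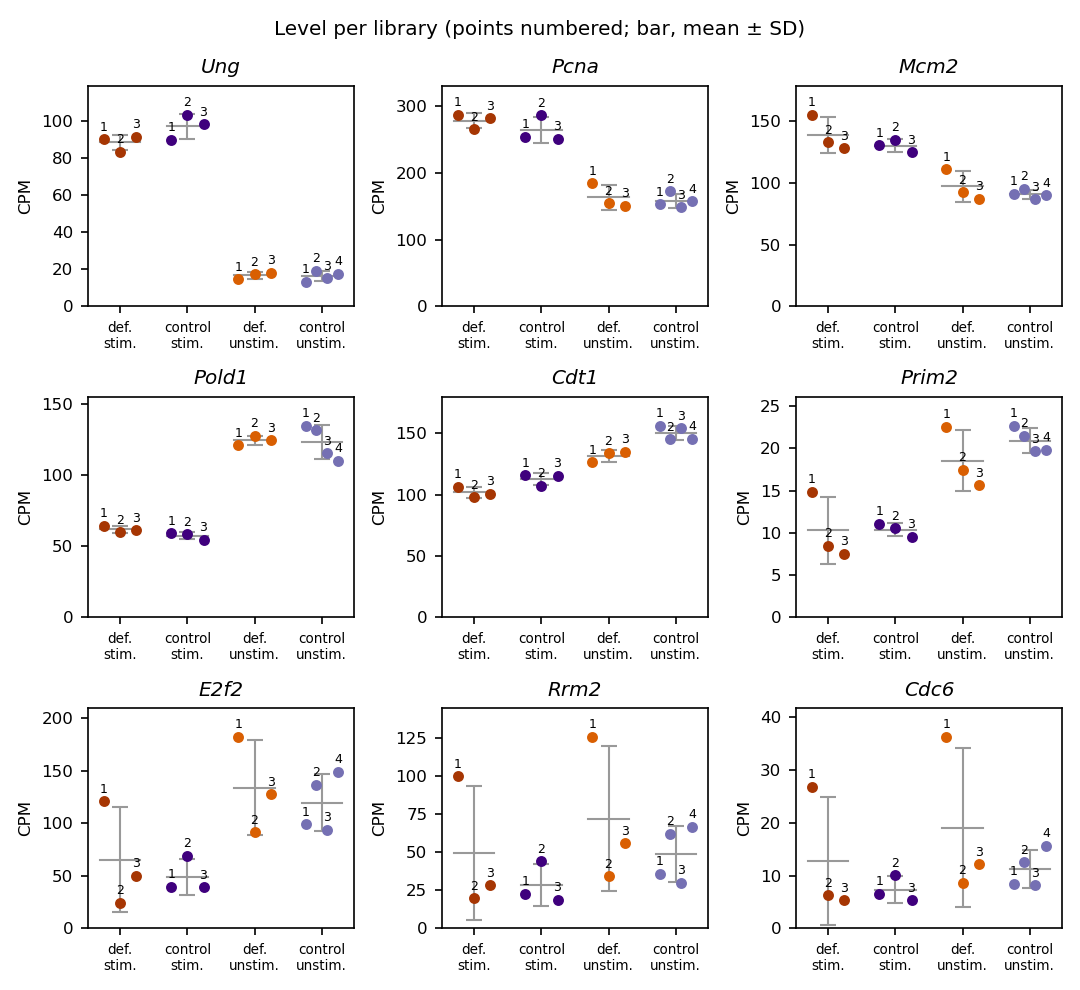
Level in CPM (vertical axes, starting at 0) of 9 replication genes in each library, by group, with the library number above each point and grey bars for the mean ± SD. Ung, Pcna and Mcm2 are higher and Pold1, Cdt1 and Prim2 lower in stimulated libraries, while E2f2, Rrm2 and Cdc6 spread widely within groups, with deficient library 1 highest in each state.

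Pold1, the catalytic subunit of polymerase delta, with an E2F sequence in its promoter, showed the largest fall among called genes. It had 64.3, 59.6 and 61.4 CPM in stimulated and 121, 128 and 124 CPM in unstimulated deficient cells. Control cells had 59.1, 58.3 and 54.6 CPM after stimulation and 135, 131, 115 and 110.0 CPM without it. The states were far apart, with means of 61.8 ± 2.36 and 124 ± 3.33 CPM in deficient and 57.4 ± 2.42 and 123 ± 11.96 CPM in control cells (SD, n = 3 except 4 control unstimulated). The log2 change was -1.01 ± 0.074 (SE, edgeR adjusted p = 8.98e-09) in deficient and -1.098 ± 0.071 (SE, edgeR adjusted p = 1.53e-09) in control cells. Prim2, the large subunit of primase, was close behind, with 14.9, 8.46 and 7.54 CPM in stimulated and 22.6, 17.5 and 15.6 CPM in unstimulated deficient cells, and 11.1, 10.6 and 9.53 CPM in stimulated and 22.7, 21.5, 19.7 and 19.9 CPM in unstimulated control cells. The states did not overlap for Prim2 either, and its log2 change was -0.86 ± 0.21 (SE, edgeR adjusted p = 0.0028) in deficient and -1.01 ± 0.20 (SE, edgeR adjusted p = 0.000483) in control cells. Pola2, the accessory subunit of polymerase alpha, fell in control cells with a log2 change of -0.21 ± 0.075 (SE, edgeR adjusted p = 0.0246), a small change that DESeq2, DESeq2's size factors and limma did not call. Pola1, Prim1 and Pole, the catalytic subunits of polymerase alpha, primase and polymerase epsilon, did not pass the test in either genotype.

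Among the licensing factors Cdt1 fell and the others did not pass the test. Cdt1 had 106, 98.2 and 101 CPM in stimulated and 126, 134 and 135 CPM in unstimulated deficient cells, and 116, 107 and 115 CPM in stimulated and 156, 145, 154 and 146 CPM in unstimulated control cells. The ranges did not overlap in either genotype, with log2 changes of -0.37 ± 0.055 (SE, edgeR adjusted p = 2.54e-05) in deficient and -0.41 ± 0.052 (SE, edgeR adjusted p = 3.65e-06) in control cells. Cdt1 lies wholly within the read-through gene Gm20388 on the same strand, so its reads are not fully separable. Cdc6 had 26.8, 6.29 and 5.29 CPM in stimulated and 36.3, 8.67 and 12.1 CPM in unstimulated deficient cells, with the libraries numbered 1 far above the others. In control cells Cdc6 had 6.56, 10.1 and 5.29 CPM after stimulation and 8.44, 12.5, 8.12 and 15.6 CPM without it. Its log2 change was -0.59 ± 0.71 (SE, edgeR adjusted p = 0.513) in deficient and -0.61 ± 0.68 (SE, edgeR adjusted p = 0.469) in control cells. None of the helicase activators passed in deficient cells, and in control cells Gins3, a GINS subunit, fell with a log2 change of -0.40 ± 0.15 (SE, edgeR adjusted p = 0.0311), a call that DESeq2, DESeq2's size factors and limma did not make.

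In Okazaki fragment maturation the flap nuclease gene rose and the ligase gene fell. Fen1 had 75.4, 59.1 and 67.6 CPM in stimulated and 58.3, 48.5 and 43.6 CPM in unstimulated deficient cells, and 69.5, 75.4 and 66.3 CPM in stimulated and 47.3, 55.04, 49.6 and 51.9 CPM in unstimulated control cells. Its states did not overlap, with log2 changes of 0.42 ± 0.11 (SE, edgeR adjusted p = 0.0027) in deficient and 0.47 ± 0.098 (SE, edgeR adjusted p = 0.00063) in control cells. Lig1, DNA ligase I, had 62.2, 34.7 and 34.1 CPM in stimulated and 78.6, 61.4 and 54.7 CPM in unstimulated deficient cells, and 36.01, 35.7 and 37.7 CPM in stimulated and 52.9, 59.9, 55.4 and 56.7 CPM in unstimulated control cells. The log2 change of Lig1 was -0.58 ± 0.21 (SE, edgeR adjusted p = 0.0339) in deficient and -0.62 ± 0.20 (SE, edgeR adjusted p = 0.0171) in control cells. Stimulated deficient library 1 reached the unstimulated levels of Lig1, and the deficient call was lost on leaving out any of 5 libraries (highest edgeR adjusted p = 0.142). Slbp, which binds the stem-loop of histone mRNAs, fell with a log2 change of -0.41 ± 0.11 (SE, edgeR adjusted p = 0.00517) in deficient and -0.30 ± 0.10 (SE, edgeR adjusted p = 0.024) in control cells, the control call being lost with DESeq2, DESeq2's size factors and limma. It had 78.01, 55.001 and 61.9 CPM in stimulated and 99.1, 81.1 and 79.1 CPM in unstimulated deficient cells, and 70.1, 71.9 and 65.8 CPM in stimulated and 81.3, 85.9, 82.4 and 90.5 CPM in unstimulated control cells.

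Of the genes for deoxynucleotide supply, Tk1 rose in control cells and the others did not pass the test. Tk1, thymidine kinase, had 34.1, 20.6 and 21.7 CPM in stimulated and 30.3, 16.8 and 18.53 CPM in unstimulated deficient cells. Control cells had 34.4, 27.99 and 31.3 CPM of it after stimulation and 21.2, 19.2, 18.4 and 21.8 CPM without it. The control states did not overlap and the deficient ones did, with log2 changes of 0.22 ± 0.23 (SE, edgeR adjusted p = 0.45) in deficient and 0.63 ± 0.21 (SE, edgeR adjusted p = 0.0219) in control cells. The control call was lost with upper-quartile factors and on leaving out any of 4 control libraries (highest edgeR adjusted p = 0.0781). Rrm2, the small subunit of ribonucleotide reductase, had 100.1, 19.7 and 28.6 CPM in stimulated and 126, 34.4 and 55.99 CPM in unstimulated deficient cells, and 22.8, 44.1 and 18.8 CPM in stimulated and 35.98, 62.4, 30.1 and 66.97 CPM in unstimulated control cells. E2f2, an activating E2F factor, had 121, 24.3 and 50.3 CPM in stimulated and 182, 91.8 and 128 CPM in unstimulated deficient cells, and 39.7, 69.02 and 39.1 CPM in stimulated and 99.3, 137, 93.9 and 149 CPM in unstimulated control cells. For Rrm2 the change in the fit without pairs was within the spread between libraries, at -0.56 ± 0.70 (SE, edgeR adjusted p = 0.532) in deficient and -0.78 ± 0.67 (SE, edgeR adjusted p = 0.352) in control cells. With numbered pairs as a block Rrm2 passed in both genotypes, as given with the pairs. The change of E2f2 was the most negative of the 39 in both genotypes, at -1.05 ± 0.53 (SE, edgeR adjusted p = 0.122) in deficient and -1.28 ± 0.51 (SE, edgeR adjusted p = 0.054) in control cells, and neither passed. Without the 2 deficient libraries numbered 1 it passed in both, at -1.504 ± 0.46 (SE, edgeR adjusted p = 0.0254) in deficient and -1.24 ± 0.35 (SE, edgeR adjusted p = 0.0163) in control cells. It also passed in both with an erythroid marker level in the fit (edgeR adjusted p = 0.0126 in deficient and 0.00899 in control cells), and in control cells by DESeq2 (DESeq2 adjusted p = 0.0231). Tyms, Rrm1, E2f1, Chek1, the S phase checkpoint kinase, and Uhrf1, which guides maintenance DNA methylation, did not pass either.

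Same-numbered libraries of a genotype resembled each other across the states, so each numbered pair gives its own response. In all 6 pairs 11 replication genes were higher after stimulation, against 31.1% of all genes, 15 were lower, against 36.7% of all genes, and 13 were mixed. With the pair as a block in the edgeR fit, 7 rose and 14 fell in deficient cells, and 11 rose and 17 fell in control cells. These are 53.8% of the 39 in deficient cells, where 65.6% of all genes were called, and 71.8% in control cells, where 65.2% were. The genes added in both genotypes were E2f2, Rrm2, Cdc6, Cdc45, Uhrf1, Mcm7 and Pola1, all lower. E2f2 stood at 0.663, 0.264 and 0.393 times its unstimulated level in deficient pairs 1 to 3 and at 0.400, 0.505 and 0.416 times in control pairs 1 to 3. It was lower in 6 of 6 pairs, with a blocked log2 change of -1.25 ± 0.28 (SE, edgeR adjusted p = 0.015) in deficient and -1.19 ± 0.27 (SE, edgeR adjusted p = 0.0176) in control cells. Rrm2 stood at 0.794, 0.571 and 0.510 times its unstimulated level in deficient and 0.633, 0.707 and 0.625 times in control pairs, with blocked changes of -0.68 ± 0.10 (SE, edgeR adjusted p = 5.59e-05) in deficient and -0.61 ± 0.10 (SE, edgeR adjusted p = 0.000193) in control pairs. Cdc6 likewise was lower in 6 of 6 pairs, with blocked changes of -0.66 ± 0.14 (SE, edgeR adjusted p = 0.000323) in deficient and -0.42 ± 0.14 (SE, edgeR adjusted p = 0.0143) in control cells. For these 3 genes deficient pair 1 was highest in both states, and among control pairs 1 to 3 pair 2 was. Tk1 passed in deficient cells as well with the block, at 0.23 ± 0.085 (SE, edgeR adjusted p = 0.023), against 0.67 ± 0.084 (SE, edgeR adjusted p = 9.61e-07) in control cells.

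**Figure D3:**
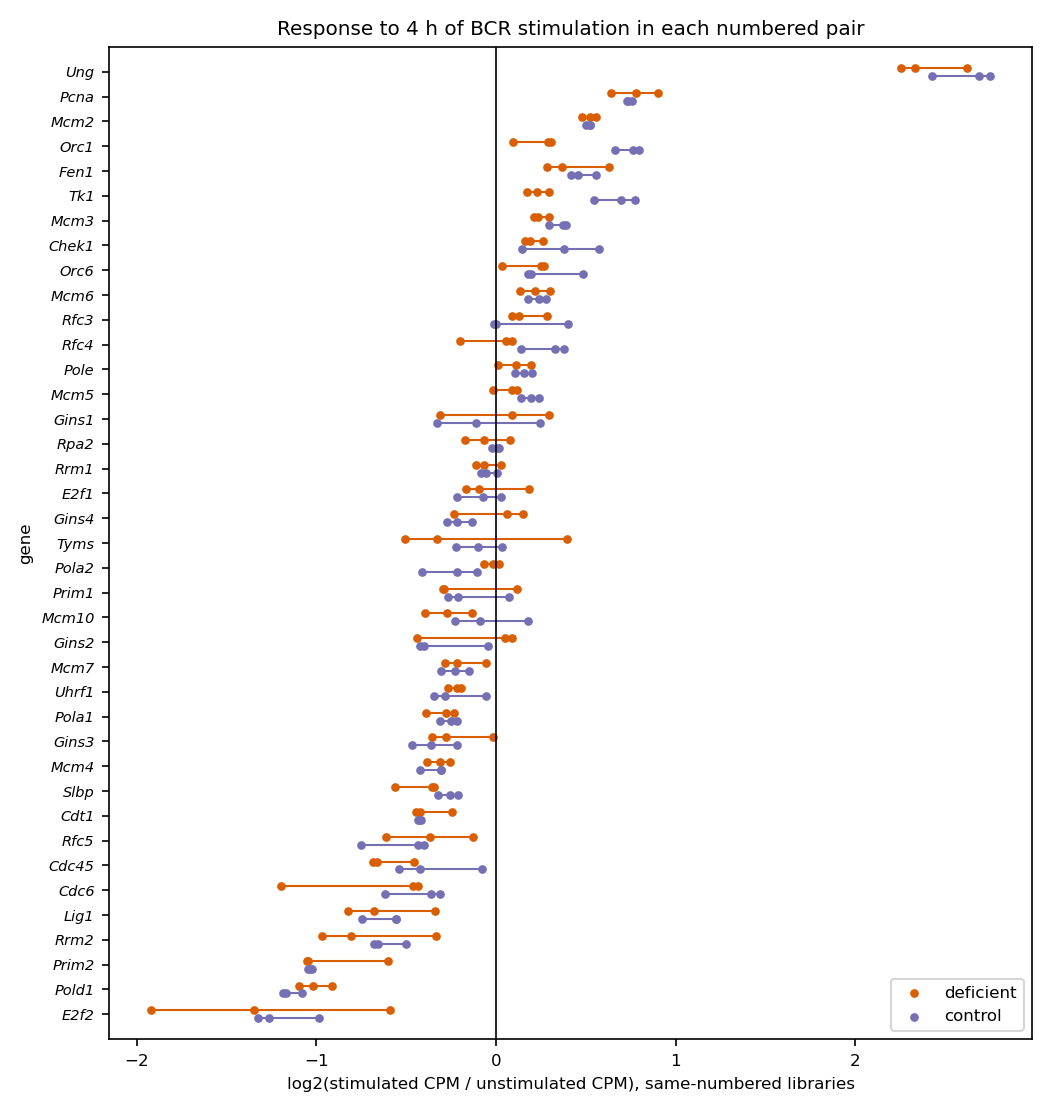
Ratio of stimulated to unstimulated CPM (log2, horizontal axis) for each replication gene (rows, ordered by mean ratio) in each numbered pair, with deficient pairs in orange above control pairs in purple and lines for the range. Ung lies farthest right and E2f2 farthest left on average, and in 6 rows, Tk1 and Orc1 among them, all control pairs lie to the right of all deficient pairs.

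The response was also compared between genotypes. No replication gene passed the test of the difference of responses in edgeR, where 0.00737% of all genes, a single gene, was called. In 6 members (Tk1, Orc1, Mcm3, Mcm5, Rfc4 and Slbp) the response of every deficient pair was below that of every control pair, against 5.16% of all genes, and in Pola2 it was above, against 8.18%. By unadjusted p under 0.05 the count was 0 of the 39, against 510 of all 13574 genes. With the pair as a block edgeR called 0, where 0.501% of all genes were called. In that fit 3 had an unadjusted p under 0.05, and the share over all genes at that p was not counted. DESeq2 called 0, against 0.354% of all genes, but gave no adjusted p for 18 of the 39, Tk1, Orc1 and Rfc4 among them. Tk1 had the most negative difference, at -0.42 ± 0.31 (SE, edgeR adjusted p = 1). Its level after stimulation was 1.13, 1.23 and 1.17 times the unstimulated level in deficient pairs and 1.62, 1.46 and 1.71 times in control pairs, which do not overlap. With the pair as a block the difference was -0.44 ± 0.12 (SE, edgeR adjusted p = 0.165). Orc1, the largest subunit of the origin recognition complex, was similar in its pairs, at 1.22, 1.24 and 1.07 times in deficient and 1.73, 1.59 and 1.70 times in control pairs, with a blocked difference of -0.50 ± 0.20 (SE, edgeR adjusted p = 0.564). Rfc4 and Ung followed Tk1 at the negative end, at -0.26 ± 0.28 (SE, edgeR adjusted p = 1) and -0.17 ± 0.16 (SE, edgeR adjusted p = 1). Rfc4 had 11.4, 7.39 and 7.12 CPM in stimulated and 10.998, 8.49 and 6.70 CPM in unstimulated deficient cells, and 8.25, 8.04 and 7.13 CPM in stimulated and 6.56, 7.31, 5.49 and 7.16 CPM in unstimulated control cells. At the positive end lay E2f2, Rrm2 and Gins4, at 0.23 ± 0.72 (SE, edgeR adjusted p = 1), 0.22 ± 0.97 (SE, edgeR adjusted p = 1) and 0.20 ± 0.13 (SE, edgeR adjusted p = 1). Gins4 had 33.1, 25.9 and 31.2 CPM in stimulated and 29.8, 30.4 and 29.9 CPM in unstimulated deficient cells, and 29.7, 27.5 and 25.1 CPM in stimulated and 32.5, 33.2, 29.3 and 31.1 CPM in unstimulated control cells. None of these differences passed in the fit without pairs, which leaves the spread between pairs in its error. With the pair as a block none passed either.

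Other genes of the replication machinery moved in both directions as well. Of 46 further replication genes, 13 rose and 19 fell in deficient cells, and 12 rose and 23 fell in control cells, where 57.9% of all genes were called in deficient and 60.3% in control cells. Those with the smallest p in control cells were Pold4 and Pold2, accessory subunits of polymerase delta, Orc2, an origin recognition subunit, and Top1, topoisomerase I. Pold4 fell, with log2 changes of -1.51 ± 0.080 (SE, edgeR adjusted p = 2.44e-10) in deficient and -1.66 ± 0.077 (SE, edgeR adjusted p = 4.38e-11) in control cells. Pold2 rose, by 1.49 ± 0.087 (SE, edgeR adjusted p = 6.80e-10) in deficient and 1.44 ± 0.080 (SE, edgeR adjusted p = 2.70e-10) in control cells. Orc2 rose by 0.92 and 0.97 and Top1 by 0.93 and 0.996 on the log2 scale in deficient and control cells. Subunits of polymerase delta thus differed in direction, with Pold1 and Pold4 lower and Pold2 higher.

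Genes that act around E2F in G1 moved in both directions too. Of 25 E2F, RB and G1 cyclin genes, 9 rose and 7 fell in deficient cells, and 10 rose and 8 fell in control cells, against the same 57.9% and 60.3% of all genes. Cdk6, a G1 cyclin-dependent kinase, rose by 2.42 ± 0.11 (SE, edgeR adjusted p = 4.49e-11) in deficient and 2.496 ± 0.096 (SE, edgeR adjusted p = 8.09e-12) in control cells. Cdk4, its close relative, rose by 1.47 in deficient and 1.46 in control cells. The CDK inhibitor gene Cdkn1b changed by -1.75 in deficient and -1.88 in control cells and the RB family gene Rbl2 by -1.804 in deficient and -1.79 in control cells, and all 4 changes passed. Of 22 mitosis genes 0 rose, where 28.3% of all genes rose in deficient and 28.5% in control cells, and 2 fell in deficient and 6 in control cells, where 29.6% and 31.8% of all genes fell. Among those that fell was Ndc80, a kinetochore gene, at -1.61 ± 0.14 (SE, edgeR adjusted p = 5.04e-08) in deficient and -1.52 ± 0.13 (SE, edgeR adjusted p = 4.84e-08) in control cells. Aurkb, a mitotic kinase gene, changed by -0.96 ± 0.33 (SE, edgeR adjusted p = 0.0255) in deficient and -1.08 ± 0.31 (SE, edgeR adjusted p = 0.0113) in control cells. Cenpe and Kif23, mitotic motor genes, fell in control cells, with log2 changes of -0.91 and -0.90, and did not pass in deficient cells.

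The genotype comparisons ask what loss of Regnase-1 changes in these genes, and none of the 39 passed the test in either state. In stimulated cells 0 were called higher and 0 lower, where 2.01% of all genes were called, 0.751% higher and 1.26% lower. At an unadjusted p under 0.05 there were 2 of 39, against 1629 of all 13574 genes. DESeq2 called 0, against 3.92% of all genes. In unstimulated cells 0 were called higher and 0 lower, where 0.324% of all genes were called, 0.125% higher and 0.199% lower. At an unadjusted p under 0.05 there was 1 of 39, against 1171 of all 13574 genes. DESeq2 called 1, which was lower, against 1.20% of all genes. The log2 change lay above 0 for 33 of 39 in stimulated and 34 of 39 in unstimulated cells, with medians of 0.16 and 0.15 against 0.0028 and -0.019 over all genes. Without the 2 deficient libraries numbered 1 the medians were 0.0021 and -0.017, so the positive medians rested on those 2 libraries. They had been set apart by high levels of these same genes, so lower medians without them are a description and not a test.

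**Figure D4:**
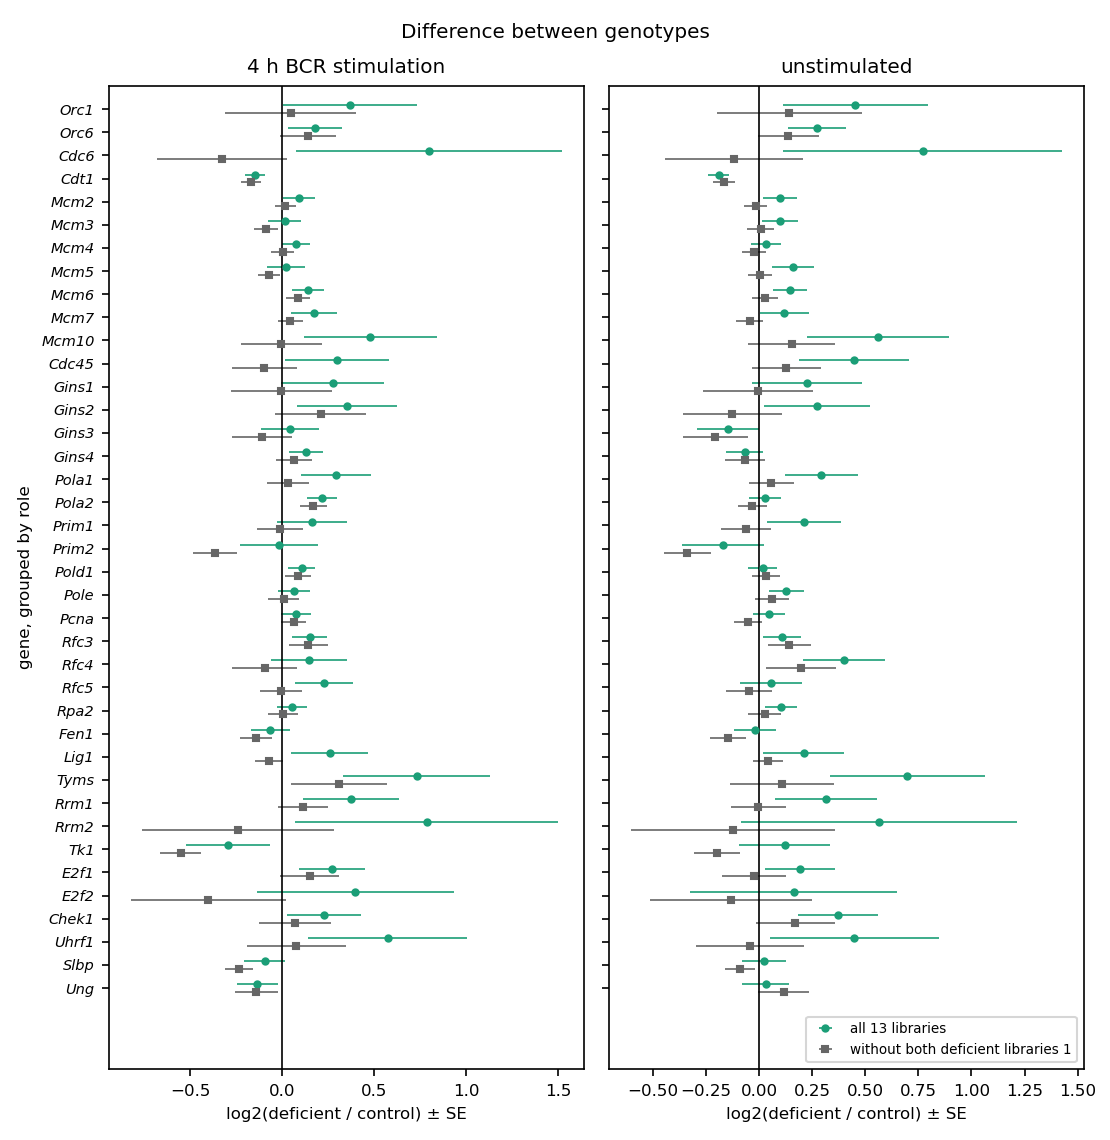
Log2 change of deficient over control (horizontal axes, ± SE) for each replication gene (rows) in stimulated and unstimulated cells, from all 13 libraries (green circles) and without both deficient libraries numbered 1 (grey squares). Most green points lie right of 0 and the grey points scatter about 0, with Cdt1 left of 0 in all 4 sets and Tk1 farthest left among grey points after stimulation.

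Cdt1 was the gene with the smallest p in both states. It was lower in deficient cells in both, with a log2 change of -0.15 ± 0.055 (SE, edgeR adjusted p = 0.251) after stimulation and -0.19 ± 0.051 (SE, edgeR adjusted p = 0.19) without it, and its groups overlapped in neither state. DESeq2 called it lower in unstimulated cells, at -0.18 ± 0.052 (SE, DESeq2 adjusted p = 0.0421), where it called 1.20% of all genes. After stimulation Pola2 was the other gene with an unadjusted p under 0.05, at 0.22 ± 0.080 (SE, edgeR adjusted p = 0.255), with 53.5, 49.3 and 45.9 CPM in deficient and 44.1, 40.3 and 43.6 CPM in control cells. The groups did not overlap for 4 members after stimulation, Pola2, Mcm6 and Pold1 being higher and Cdt1 lower, where 17.8% of all genes did not overlap, 1059 higher and 1363 lower. Without stimulation only Cdt1 of the 39 did not overlap, where 8.72% of all genes did not, 426 higher and 758 lower.

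The largest positive values were those of Cdc6, Rrm2 and Tyms, thymidylate synthase, and none passed. In stimulated cells they were 0.80 ± 0.72 (SE, edgeR adjusted p = 0.764), 0.78 ± 0.71 (SE, edgeR adjusted p = 0.766) and 0.73 ± 0.40 (SE, edgeR adjusted p = 0.529), and in unstimulated cells 0.77 ± 0.66 (SE, edgeR adjusted p = 0.812), 0.56 ± 0.65 (SE, edgeR adjusted p = 0.871) and 0.70 ± 0.37 (SE, edgeR adjusted p = 0.643). Tyms had 10.4, 4.31 and 5.79 CPM in stimulated deficient and 3.48, 4.93 and 3.90 CPM in stimulated control cells, and 13.1, 6.11 and 4.39 CPM in unstimulated deficient and 4.05, 4.82, 4.19 and 6.41 CPM in unstimulated control cells. Deficient library 1 was above every other library of its state for all 3 genes. Without both libraries numbered 1, Cdc6 was -0.33 ± 0.35 (SE, edgeR adjusted p = 0.819) after stimulation and -0.12 ± 0.32 (SE, edgeR adjusted p = 0.951) without it, and Rrm2 was -0.24 ± 0.52 (SE, edgeR adjusted p = 0.936) and -0.12 ± 0.48 (SE, edgeR adjusted p = 0.967). Tyms was 0.31 ± 0.26 (SE, edgeR adjusted p = 0.742) after stimulation and 0.11 ± 0.25 (SE, edgeR adjusted p = 0.938) without it, still above 0. The most negative values in stimulated cells besides Cdt1 were those of Tk1 and Ung, at -0.30 ± 0.23 (SE, edgeR adjusted p = 0.704) and -0.14 ± 0.11 (SE, edgeR adjusted p = 0.72). In unstimulated cells they were those of Prim2 and Gins3, at -0.17 ± 0.19 (SE, edgeR adjusted p = 0.867) and -0.15 ± 0.15 (SE, edgeR adjusted p = 0.846). Gins3 had 9.19, 6.16 and 7.29 CPM in stimulated deficient and 6.79, 7.34 and 7.81 CPM in stimulated control cells, and 9.31, 7.47 and 9.33 CPM in unstimulated deficient and 8.74, 10.2, 9.07 and 10.5 CPM in unstimulated control cells. Leaving out both deficient libraries numbered 1 made Tk1 after stimulation a call, at -0.55 ± 0.11 (SE, edgeR adjusted p = 0.0154), where 2.16% of all genes were called. These libraries stood out by the same replication genes and held the highest deficient Tk1 value in each state. The exclusion was thus linked to the values tested, and it left only stimulated deficient libraries 2 and 3.

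Deficient library 1 was the highest of the 6 stimulated libraries for 34 of 39 replication genes, against 23.6% of all genes, and the highest of the 7 unstimulated ones for 32 of 39, against 14.0% of all genes. Its level was a median of 1.32 times the mean of the other stimulated libraries and 1.34 times that of the other unstimulated ones, against 0.999 and 0.941 times over all genes. The excess was uneven across roles. It was largest in unstimulated cells for deoxynucleotide supply, at a median of 2.17 times, and smallest for polymerases and primase, at 1.16 times. In stimulated cells it was largest for the E2F factors, at 2.04 times, with deoxynucleotide supply at 2.01 times, and smallest for the clamp, clamp loader and single-strand binding genes, at 1.13 times. Single genes reached 4.00 times for Cdc6 and 3.74 times for Rrm2 in stimulated cells. Gins4, Mcm4, Pola2 and Rfc3 varied least of the 39 between the unstimulated libraries, with the highest 1.14, 1.18, 1.18 and 1.19 times the lowest.

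Some other lists were highest in these libraries and others were not. Deficient library 1 was highest for 3 of 7 B cell precursor and 2 of 6 haematopoietic progenitor genes in stimulated cells. In unstimulated cells it was highest for 0 of 7 and 1 of 6. For myeloid markers the counts were 2 of 12 in stimulated and 4 of 12 in unstimulated cells. For germinal centre markers they were 0 of 9 in each state. Over all genes the shares were 23.6% in stimulated and 14.0% in unstimulated cells. The 22 mitosis genes summed to 1475, 479.9 and 597 CPM in stimulated deficient and 518, 704 and 477 CPM in stimulated control libraries, and to 1828, 706 and 927 CPM in unstimulated deficient and 616, 954, 618 and 1149.7 CPM in unstimulated control libraries. Erythroid markers summed to 2406, 251 and 1089 CPM in stimulated deficient and 842, 999.9 and 923 CPM in stimulated control libraries. In unstimulated cells they summed to 2600.1, 384 and 1689 CPM in deficient and 1136, 1306, 1046 and 1466 CPM in control libraries. Library 1 was highest for 17 of the 17 erythroid markers tested in stimulated and 16 of 17 in unstimulated cells. Of the 21 erythroid markers in the tables, Hba-a1, Hba-a2 and Hbb-b2 were listed at 0 in all 13 libraries and Hbb-b1 in 10, while Klf1, an erythroid transcription factor, had 29.3, 1.92 and 4.46 CPM in stimulated deficient and 3.48, 9.46 and 4.99 CPM in stimulated control libraries.

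The 11 markers of neutrophils and granulocyte precursors summed to 343, 41.2 and 40.5 CPM in stimulated deficient and 24.4, 70.8 and 172 CPM in stimulated control libraries, and none was at 0 in any library. Library 1 was highest for 10 of these 11 in stimulated and 5 of 11 in unstimulated cells. Without stimulation they summed to 511, 78.9 and 58.7 CPM in deficient and 37.9, 104, 266 and 443 CPM in control libraries. Mpo, a granule enzyme of granulocyte precursors, had 272, 36.7 and 16.4 CPM in unstimulated deficient and 14.5, 43.7, 124 and 143 CPM in unstimulated control libraries. Among control unstimulated libraries, 2 and 4 had the higher Cdc6, Rrm2 and E2f2 and the higher mitosis and erythroid sums. The granulocyte marker sum and Mpo did not follow that order. Library 2 was below the control library with a sum of 266 CPM and Mpo of 124 CPM. That library had the lowest Cdc6, Rrm2 and E2f2 of the 4. Of deficient libraries 2 and 3, library 3 had the higher Rrm2 and E2f2 and the higher mitosis and erythroid sums in each state. Its Cdc6 was the higher only without stimulation, and its Tyms only after stimulation. Unstimulated deficient library 3 had a higher erythroid sum than control library 4, but lower Cdc6, Rrm2 and E2f2 and a lower mitosis sum. The part of these other cells in the replication gene levels was not tested. When the fit also held an erythroid marker level, 0 replication genes were called between genotypes in either state, with medians of 0.16 after stimulation and 0.15 without it. Over all genes that fit called 2.63% after stimulation and 0.413% without it. The main fit had called 0 members as well, so the 0 does not bear on these other cells. At an unadjusted edgeR p under 0.05 the fit with the erythroid level had 3 of 39 after stimulation and 7 of 39 without it. The main fit had 2 and 1. The share over all genes at that p was not counted for the fit with the erythroid level. For the stimulation response, the calls for Ung, Pcna, Mcm2, Fen1, Pold1, Cdt1, Mcm4 and Prim2 were made on leaving out any single library in both genotypes.

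**Figure D5:**
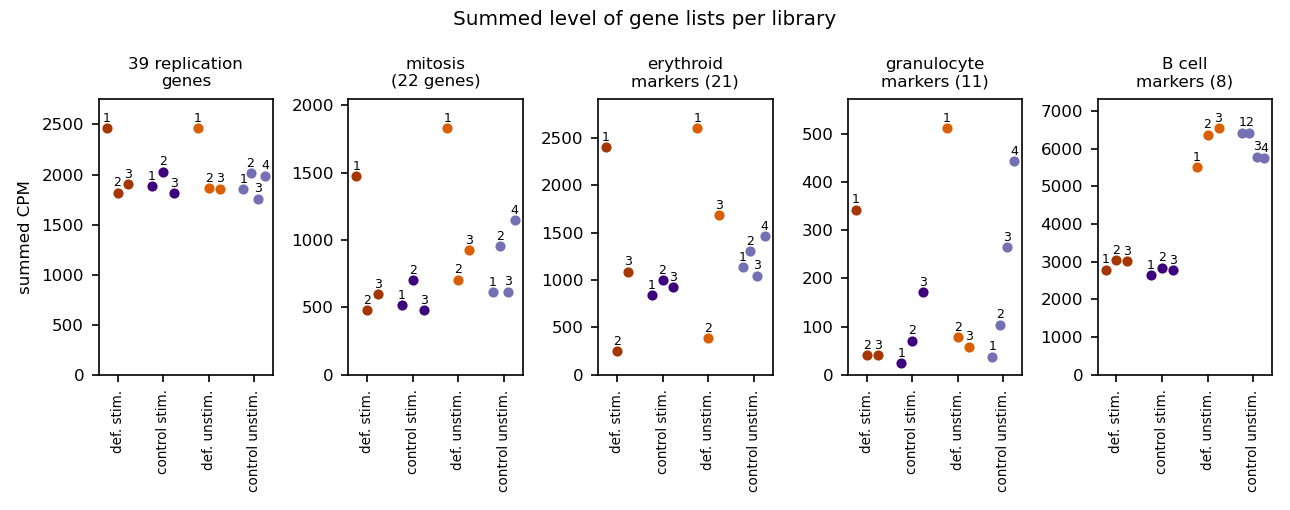
Summed CPM (vertical axes, starting at 0) of the 39 replication genes, 22 mitosis genes and markers of erythroid, granulocyte and B cells in each library, by group, with the library number above each point. Deficient library 1 is highest in each state for the first 3 sums, and for granulocyte markers too, but not for B cell markers.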

How the data were processed

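Bulk RNA-seq was available for 13 libraries of mouse splenic B cells. Each has a file of read counts by gene symbol that the authors deposited, and TopHat, HTSeq and the mm10 build are named per the submitters' processing notes, with no versions. Each also has deposited log2 values, for which the notes name DESeq2. The transformation behind them, the annotation, the strand setting and the handling of multi-mapped reads are not given in the sources used here.

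Counts of 23337 symbols were read, less 1 that lacked a value in some library. The members, the other gene lists and the alternatives were chosen with earlier results of these data known. Replicates were compared by chi-square over genes, and no 2 libraries of a group agreed within sampling noise. edgeR 4.0.16 in R 4.3.3 was run on all 13 libraries using filterByExpr on the groups (minimum count 10), TMM scaling and a robust quasi-likelihood fit of 1 mean per group. This tested 13574 genes, the 39 members among them, with 9 residual degrees of freedom, and p-values were Benjamini-Hochberg adjusted over all of them. The standard error of a log2 change was taken from it and the square root of its F statistic. Genotypes were compared in each state, states in each genotype, and then the responses of the genotypes. The steps were tested on simulated counts. Totals limit precision as given with the results, and floors cover counting error only.

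Within a genotype, libraries with the same number deviated together from their group means, and the deviations correlated across states with r of 0.813, 0.753 and 0.592 in deficient and 0.705, 0.569 and 0.591 in control cells, across 9376 genes. Numbers therefore pair the states within a genotype, and the block for the stimulation comparisons is the pair. For the genotype comparisons the block is the number alone. Across genotypes same-numbered libraries 1 to 3 did not deviate together. Their r was -0.469, -0.271 and -0.426 in stimulated and -0.543, -0.066 and -0.335 in unstimulated cells, so that block is not a pairing.

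Every member is accounted for by role. Values in each library are given for the members called (up to 10 per comparison by smallest p) and for the 3 largest and 3 smallest changes per comparison, and up to 4 genes per further list by smallest p. Pola2, Orc1, Tk1 and Gins4 beyond that rule, and Klf1 and Mpo, were named after their values were seen. Alternatives were DESeq2 1.42.0, edgeR with size factors from DESeq2 or with upper-quartile factors, no filter, at least 1 CPM in 3 libraries, only the groups compared, limma 3.58.1 on the deposited log2 values, an erythroid marker level as a term, the replicate block, and leaving out libraries. GENCODE vM21 gave exon lengths. It places another gene across 17 of the 39 members, among them Cdt1, Tk1, Fen1, Lig1, Rfc5, Slbp, Pold1 and Prim2, and names pseudogenes of Pcna and Tyms, so reads may be shared and these levels are uncertain.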

Additional observations from a re-analysis of the deposited data

Results flagged for a closer look

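Only the 4 control unstimulated libraries were examined for a library far from the others. Of 49 sets of their values, single genes and sums, 5 held one. The other groups, with 3 libraries each, were not examined in this way. Chance alone gives such a library in about 1 in 20 sets. Orc1 was at 8.99 CPM in library 4, far above 4.33, 3.80 and 3.39 CPM in the others. Orc6 was at 11.9 CPM in library 3, below 14.1 to 14.6 CPM in the others. The same library was lowest for Mcm4, at 109 CPM against 119.7 to 120.3 CPM, and for Mcm7, at 86.7 CPM against 96.8 to 97.9 CPM. Pole was at 43.4 CPM in library 2, above 38.2 to 38.9 CPM in the others.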

How the results depend on the processing

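In edgeR and the alternatives run, 0 replication genes were called for the difference of responses, which was not refitted for only the groups compared since it uses all 4, and 0 were called higher between genotypes. DESeq2 gave no adjusted p for 18 members in the difference and for 2 between genotypes in unstimulated cells. Fitted with DESeq2, 1 was called lower in unstimulated cells (Cdt1), and without both deficient libraries numbered 1, 1 was called lower in stimulated cells (Tk1). With the replicate block 7 rose and 14 fell in deficient cells after stimulation, against 6 and 6, and 11 rose and 17 fell in control cells, against 7 and 9. Between genotypes, where the number does not pair libraries, the block called 0 members. It called 2.02% of all genes in stimulated and 0.273% in unstimulated cells.

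Counts over all genes moved more. Between genotypes in unstimulated cells 44 were called, against 70 with upper-quartile factors, 163 with DESeq2 and 74 without both deficient libraries numbered 1, and 17 to 74 on leaving out single libraries. In stimulated cells 273 were called, against 532 with DESeq2, and 129 to 369 on leaving out single libraries. For the difference of responses 1 was called, against 12 with upper-quartile factors, 48 with DESeq2, 10 with no filter, 11 with the erythroid term, 13 without both deficient libraries numbered 1 and 68 with the replicate block, and 1 to 10 on leaving out single libraries. The causes were not tested.

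On leaving out single libraries the replication genes called lower after stimulation in deficient cells numbered 5 to 10, and their median log2 change ran from -0.30 without stimulated library 1 to 0.16 without unstimulated library 1. The median difference of responses ran from -0.22 to 0.19 without those same libraries. With both left out the medians were -0.0058 and 0.0003. Of the calls after stimulation, 9 of 12 in deficient and 10 of 16 in control cells held without each of the 13 libraries. The lowest member level in any library, that of Gins1 in deficient unstimulated cells, was 2.04 CPM, from 45 counts.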
